A study of Mus musculus with 24 samples.

Results

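Expression of 8 genes of the sterol synthesis pathway was followed through the distal jejunum of male and female mice with and without Ptk6. They were chosen by gene symbol (Hmgcs1, Mvd, Idi1, Fdps, Sqle, Lss, Insig1 and Srebf2), and each symbol had 1 row among the 56691 genes of the count table. Poly(A) RNA of 24 mice was sequenced, 1 library per mouse and 3 mice in each of 8 groups. The groups were male wild type control, male Ptk6-/- control, male wild type succinate, male Ptk6-/- succinate and the same 4 groups of females. Control mice drank regular water, and succinate mice drank water with 100 mM succinate for 7 days. Ptk6-/- mice carry a germline knockout of Ptk6, an intracellular tyrosine kinase, in every tissue. All mice were on a C57BL/6 background, came from different litters of 1 colony and were 9 to 11 weeks of age. The tissue was sampled whole, so fewer cells of a type and less RNA per cell cannot be told apart in any value below.

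Cells make cholesterol from acetyl-CoA through mevalonate, farnesyl diphosphate, squalene and lanosterol. When sterols in the endoplasmic reticulum are scarce, SCAP carries the precursor of the transcription factor SREBP-2, the product of Srebf2, to the Golgi, where it is cleaved, and the released fragment enters the nucleus and switches on most genes of the pathway. The INSIG proteins hold SCAP back when sterols are plentiful, and Insig1 is itself a target of SREBP, which closes a feedback loop. The small intestine both makes cholesterol and takes it up from bile and food. In this pathway Hmgcs1 encodes the cytosolic HMG-CoA synthase, Mvd mevalonate diphosphate decarboxylase, Idi1 isopentenyl diphosphate isomerase and Fdps farnesyl diphosphate synthase. Sqle encodes squalene epoxidase and Lss lanosterol synthase, which closes the sterol ring system.

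The promoters are shown because several of the genes moved together between mice. Whether pairs of other genes do so as often was not tested. RefSeq windows on GRCm38.p6 matched 6 of the 8 genes, and the 250 bases before each start are given 5′ to 3′ on the strand of the gene. Capitals mark 3 motifs searched on both strands: TCACNCCAC, a sterol regulatory element type, CCAAT, bound by NF-Y, and GGGCGG, bound by Sp1. No base was shared by 2 motif matches.

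Hmgcs1: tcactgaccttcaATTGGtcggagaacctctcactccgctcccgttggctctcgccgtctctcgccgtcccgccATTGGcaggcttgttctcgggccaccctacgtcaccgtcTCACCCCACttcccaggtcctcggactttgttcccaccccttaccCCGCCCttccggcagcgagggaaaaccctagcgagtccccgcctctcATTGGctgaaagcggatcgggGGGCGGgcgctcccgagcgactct
Mvd: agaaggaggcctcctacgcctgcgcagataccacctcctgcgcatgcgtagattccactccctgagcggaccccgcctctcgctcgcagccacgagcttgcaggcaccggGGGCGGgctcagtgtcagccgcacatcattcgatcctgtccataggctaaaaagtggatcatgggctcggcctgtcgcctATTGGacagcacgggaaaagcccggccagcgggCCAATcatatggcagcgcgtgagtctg
Idi1: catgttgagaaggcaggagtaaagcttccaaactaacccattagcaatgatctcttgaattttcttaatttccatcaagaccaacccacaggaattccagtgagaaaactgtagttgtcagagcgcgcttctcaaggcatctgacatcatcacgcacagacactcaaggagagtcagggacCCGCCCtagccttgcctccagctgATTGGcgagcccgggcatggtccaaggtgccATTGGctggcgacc
Lss: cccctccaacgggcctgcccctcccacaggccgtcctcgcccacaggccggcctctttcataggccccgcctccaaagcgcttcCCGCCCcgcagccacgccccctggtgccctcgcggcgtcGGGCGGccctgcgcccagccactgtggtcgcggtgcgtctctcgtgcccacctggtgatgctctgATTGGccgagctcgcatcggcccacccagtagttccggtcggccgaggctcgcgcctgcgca
Insig1: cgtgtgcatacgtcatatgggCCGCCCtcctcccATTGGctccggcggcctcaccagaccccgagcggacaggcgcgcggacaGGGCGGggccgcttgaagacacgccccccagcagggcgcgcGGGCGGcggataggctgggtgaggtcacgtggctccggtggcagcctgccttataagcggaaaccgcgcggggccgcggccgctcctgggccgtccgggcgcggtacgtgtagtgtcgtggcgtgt
Srebf2: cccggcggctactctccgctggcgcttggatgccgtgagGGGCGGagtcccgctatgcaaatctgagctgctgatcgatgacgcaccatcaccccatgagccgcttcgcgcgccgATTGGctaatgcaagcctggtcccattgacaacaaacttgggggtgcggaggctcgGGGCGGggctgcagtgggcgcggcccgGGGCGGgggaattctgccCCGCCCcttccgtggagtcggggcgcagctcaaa

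The windows lie at chr13:119690101-119690350 (plus strand) for Hmgcs1, chr8:122443423-122443672 (minus) for Mvd, chr13:8885356-8885605 (plus) for Idi1, chr10:76531355-76531604 (plus) for Lss, chr5:28071162-28071411 (plus) for Insig1 and chr15:82147019-82147268 (plus) for Srebf2. CCAAT was found in all 6 windows, against 33.8% of 32851 RefSeq windows of the same length. GGGCGG was also found in all 6, against 32.7%. TCACNCCAC was found in 1, that of Hmgcs1, where it starts 137 bases before the gene, against 1.05% of all windows. These are matches of letters and say nothing of binding. The genes themselves are placed by the deposited table, on the build GRCm39 named in the submitters' processing notes, at chr13:120151915-120169796 (Hmgcs1, ENSMUSG00000093930), chr8:123160340-123170161 (Mvd, ENSMUSG00000006517), chr13:8935537-8942487 (Idi1, ENSMUSG00000058258), chr3:89000895-89009266 (Fdps, ENSMUSG00000059743), chr15:59186926-59203041 (Sqle, ENSMUSG00000022351), chr10:76367422-76392972 (Lss, ENSMUSG00000033105), chr5:28276361-28283660 (Insig1, ENSMUSG00000045294) and chr15:82031382-82089580 (Srebf2, ENSMUSG00000022463). A listed gene overlaps the span of Hmgcs1, Srebf2, Idi1, Lss and Fdps, and the highest mean of these neighbours was 0.250 CPM (counts scaled to the library's total, with TMM).

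Total counts were 8080321 to 52824743 per library, with a median of 43017686.5. Ptk6 had 284 to 2405 counts in the wild type libraries and 7 to 61 in the Ptk6-/- libraries. Villin (Vil1), a brush border gene of enterocytes, was at 842 to 3566 CPM in the 24 libraries. The following 3 libraries stood apart, and values without them are given for the genes they moved most. Male wild type control 1 had 51.2% of its counts on Rn18s-rs5, an 18S ribosomal RNA gene, and male Ptk6-/- succinate 1 had 29.7% and the fewest counts. Female wild type succinate 2 held heart muscle markers, at a summed 20612 CPM, where the next highest library had 232.6. The libraries also differed in how log2 CPM depended on gene length, with slopes of 0.07 to 0.45 per doubling of length. The slope, or the value after an offset for it, is given beside most of the results for Fdps, Mvd, Lss and Srebf2, the genes of the 8 that move with it. For Fdps and Mvd the offset did not remove the relation to the slope. Their r with it over 24 libraries, group means subtracted, was -0.83 and -0.73 before and -0.90 and -0.57 after. Offset values of these 2 genes are therefore not free of the slope.

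The genes differed widely in level, and each was detected in all 24 libraries. Levels between genes are compared as FPKM, which is per length, as the mean ± SD over all 24 libraries. Hmgcs1 was the highest at 25.3 ± 9.70 FPKM and was first of the 8 in 20 libraries. Srebf2 followed at 14.5 ± 4.73, Mvd at 13.4 ± 4.96, Fdps at 11.4 ± 4.06, Insig1 at 10.8 ± 4.01, Idi1 at 9.86 ± 4.23 and Sqle at 8.64 ± 3.45. Lss was the lowest at 1.06 ± 0.40 and was below Sqle in 24 of 24 libraries. Of neighbours in this order, Hmgcs1 was above Srebf2 in 22 libraries and Mvd above Fdps in 21. In mean CPM Fdps (67.4) lay above Mvd (34.9), so the order of these 2 rests on the lengths used. Those were read as 5.87 and 2.59 from the ratio of counts to FPKM. Lss had the lowest mean CPM too (15.4), and the largest length (15.1). Srebf2 was above Mvd in 15, Fdps above Insig1 in 15, Insig1 above Idi1 in 18 and Idi1 above Sqle in 14, differences smaller than the spread over libraries.

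**Figure D1:**
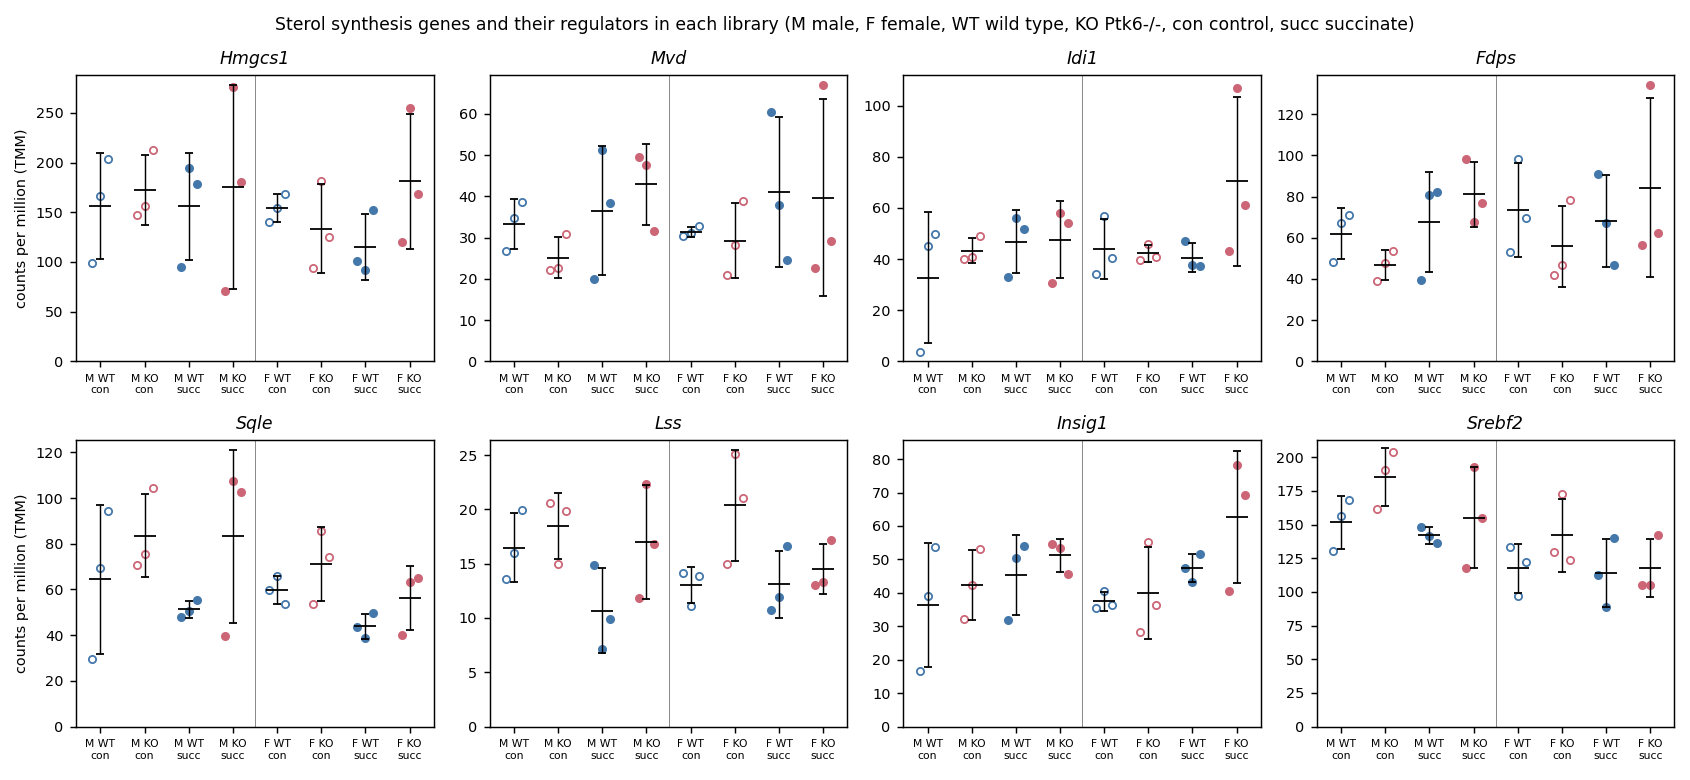
CPM (vertical axis, scaled by TMM) of each gene in each library, by group (horizontal axis); open points are control and filled points succinate mice, blue wild type and red Ptk6-/-, and bars are the mean and SD of 3 mice. The single Idi1 value at 3.48 is male wild type control 1, and the highest Idi1, Mvd, Fdps and Insig1 values belong to female Ptk6-/- succinate 2.

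Within a gene, levels are compared in CPM. Idi1 varied most, at 3.48 CPM in male wild type control 1 and 30.4 to 107 CPM in all others. All 8 genes lay below their group mean in male wild type control 1, and also in female Ptk6-/- control 1 and in female Ptk6-/- succinate 1. Female Ptk6-/- succinate 2 held the highest level of 4 genes in the series, with 107 CPM of Idi1, 134 of Fdps, 67.0 of Mvd and 78.4 of Insig1. Srebf2 was the steadiest, with a pooled within-group SD of 0.25 on the log2 scale, against 0.34 to 0.82 for the other 7. The highest group mean was 1.57 to 2.15 times the lowest, smallest for Hmgcs1 (115 CPM in succinate wild type females, 181 in succinate Ptk6-/- females) and largest for Idi1 (32.8 CPM in control wild type males, 70.4 in succinate Ptk6-/- females).

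The effect of Ptk6 loss was asked first in control mice, by edgeR's quasi-likelihood test over all genes, and a gene was called when it changed by at least 2-fold with an adjusted p (Benjamini-Hochberg) below 0.05. In males none of the 8 genes was called, against 0.739% of 19218 genes tested, and 2 had an unadjusted p under 0.05, as did 25.2% of all genes. The libraries of the 2 groups overlapped for all 8 genes, whereas 31.4% of all genes did not overlap. Fdps was at 48.1, 67.0 and 71.0 CPM in the wild type males and at 39.1, 47.5 and 53.4 in the Ptk6-/- males. The groups overlapped, and the log2 fold change was -0.42 ± 0.16 (SE; 95% interval -0.79 to -0.06; adjusted p = 0.15). Mvd was at 26.7, 34.7 and 38.6 CPM in the wild type males and at 22.1, 22.5 and 30.9 in the Ptk6-/- males, a log2 fold change of -0.42 ± 0.17 (adjusted p = 0.17). The other 6 genes had positive values of 0.14 to 0.40, with Idi1 at 0.40 ± 0.66 across an interval of -1.12 to 1.91. Without male wild type control 1, the value was -0.54 for Fdps, -0.52 for Mvd and 0.05 for Sqle (0.37 with it), and the sign turned for Idi1 (-0.11), Insig1 (-0.11) and Hmgcs1 (-0.08). The length slope was 0.19 to 0.28 in these wild type libraries and 0.39 to 0.45 in the Ptk6-/- libraries. After an offset for it, the difference was -0.47 for Fdps, -0.20 for Mvd and 0.08 for Srebf2 (0.28 without the offset). The sign turned for Lss (-0.13 against 0.15), and the slope's further part in these values was not tested. In this comparison Paneth cell markers had a median of -1.04 with 6 of 6 negative and distal intestine markers -0.74 with 2 of 3 negative. Proximal intestine markers had 0.38 with 5 of 5 positive, and 1 of 8 goblet cell markers was called. The part of these cell types and regions in the values of the 8 genes was not tested.

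In control females 0 of 8 genes were called, against 0.0158% of genes tested. Lss was the single gene of the 8 whose libraries did not overlap, against 18.9% of all genes, at 14.2, 11.1 and 13.8 CPM in wild type and 15.0, 25.1 and 21.0 CPM in Ptk6-/- females. The log2 fold change was 0.68 ± 0.26 (95% interval 0.08 to 1.27), with an unadjusted p of 0.031 and an adjusted p of 0.41, and it was 0.45 after the length offset. The length slope was 0.14 to 0.25 in these wild type libraries and 0.13 to 0.43 in the Ptk6-/- libraries. The other 7 genes had values of -0.37 (Fdps) to 0.31 (Srebf2). Over 18 settings of processing and left-out libraries Fdps ran from -0.68 to -0.10. The sign turned in some for Hmgcs1 (-0.46 to 0.02), Insig1, Idi1 and Mvd. Lymphoid cell markers had a median of 0.68 with 7 of 8 positive, and proximal intestine markers 0.31. Distal intestine markers had -0.88, enterocyte markers -0.42 and Paneth cell markers -0.36, with 0 called in these lists. The part of these markers in the values was not tested.

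The effect of succinate was asked in each sex and genotype. None of the 8 genes was called in any of these comparisons, where 0% of all genes were called in wild type males, 0% in Ptk6-/- males, 0% in wild type females and 0.0879% in Ptk6-/- females. The 2 largest values were those of Fdps and Mvd in Ptk6-/- males. Fdps was at 39.1, 47.5 and 53.4 CPM in the controls and at 98.5, 67.8 and 76.9 with succinate, a log2 fold change of 0.84 ± 0.25 (95% interval 0.27 to 1.42). Mvd was at 22.1, 22.5 and 30.9 CPM in the controls and at 49.6, 47.6 and 31.7 with succinate, a log2 fold change of 0.82 ± 0.27 (0.19 to 1.45). Each succinate library was above each control library for both genes, as it was in 1 direction or the other for 23% of all genes, and the adjusted p was 0.60. The highest Fdps and Mvd values here were those of male Ptk6-/- succinate 1, the shallowest library. Without that library the values were 0.61 for Fdps and 0.64 for Mvd. It also held 9191 CPM of 3 distal intestine markers, where no other library exceeded 3477. In this comparison the distal markers had a median of 1.39, heart muscle markers 2.04 and enteroendocrine markers 0.59, with 0 called in each list, and their part in the Fdps and Mvd values was not tested. The length slope was 0.39 to 0.45 in the controls and 0.07 to 0.33 with succinate. After the length offset the values were 1.08 for Fdps and 0.72 for Mvd. Both genes still moved with the slope after that offset (r of -0.90 and -0.57 over 24 libraries). The other 6 genes had values of -0.23 (Srebf2) to 0.31 (Insig1). Without male Ptk6-/- succinate 1 Hmgcs1 went from 0.04 to 0.39, Sqle from 0.01 to 0.31 and Idi1 from 0.16 to 0.35, Insig1 had 0.20 and Srebf2 -0.12, and Lss turned from -0.09 to 0.05.

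In wild type males the values with succinate ran from -0.63 for Lss (unadjusted p = 0.07) to 0.52 for Idi1, which had an interval of -1.17 to 2.21. Lss was at 13.6, 15.9 and 19.9 CPM in the controls and 14.9, 7.18 and 9.94 with succinate. Its value was -0.60 after the length offset and -0.98 without male wild type succinate 1, which had a length slope of 0.41 against 0.13 and 0.16 in the other succinate libraries. Without male wild type control 1 the Idi1 value was 0.004, Insig1 went from 0.32 to -0.01 and Sqle from -0.32 to -0.65. None of the 8 genes had libraries that did not overlap here, against 8.77% of all genes. In wild type males tuft cell markers had a median of 0.93, smooth muscle markers 0.86, lymphoid cell markers 0.75 and distal intestine markers 0.45. Crypt and proliferation markers had -0.18, and 0 were called in these lists. In wild type females 2 of the 8 genes had libraries that did not overlap, against 13.3% of all genes. Insig1 was at 35.5, 40.7 and 36.2 CPM in the controls and at 47.5, 43.1 and 51.7 with succinate, a log2 fold change of 0.36 ± 0.22 (adjusted p = 0.72). Sqle was at 60.0, 66.0 and 53.6 CPM in the controls and at 43.4, 38.9 and 49.8 with succinate, a log2 fold change of -0.43 ± 0.23 (adjusted p = 0.69). Of the rest, Hmgcs1 had the lowest value at -0.41 ± 0.29 and Mvd the highest at 0.41. Over 18 settings of processing and left-out libraries Mvd ran from 0.001 to 0.69. In Ptk6-/- females Idi1 had 0.72 ± 0.36, Insig1 0.63 ± 0.36, Fdps 0.57 ± 0.42, Hmgcs1 0.42 ± 0.38 and Mvd 0.41 ± 0.45. Their succinate libraries spanned wide ranges, with Idi1 at 43.0, 107 and 61.2 CPM against 39.6, 46.1 and 41.0 in the controls. Apart from that of Insig1, these values rested largely on female Ptk6-/- succinate 2. Without that library the values were 0.28 for Idi1, 0.44 for Insig1, 0.06 for Fdps, 0.09 for Hmgcs1 and -0.20 for Mvd. With all libraries and the length offset, Fdps had 0.59, Mvd 0.29, Lss -0.35 and Srebf2 -0.19. The 3 other genes had values of -0.51 (Lss), -0.36 (Sqle) and -0.29 (Srebf2), and all 8 intervals in this comparison included 0. All 8 genes had overlapping libraries, where 21.2% of all genes did not overlap. Tuft cell markers had a median of 3.01 in this comparison with 2 of 9 tested called, Paneth cell markers 1.26, enterocyte markers -0.66 and distal intestine markers -1.61. In wild type females tuft cell markers had 2.44, heart muscle markers 8.31, enterocyte markers -0.62 and distal intestine markers -1.97, with 0 called. The part of these cell types in the values of the 8 genes was not tested.

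Between genotypes under succinate, 0 of 8 genes were called in males, with 0% of genes called, and 0 of 8 in females, with 0% called. All 8 values were positive in males, from 0.05 (Idi1) to 0.72 ± 0.38 (Sqle), and every interval included 0. The sign held in all 18 settings for Sqle and Lss, and it turned in some for each of the other 6, with Idi1 as low as -0.51 and Hmgcs1 as low as -0.53, both by limma on log2(FPKM + 1). Sqle was at 48.1, 50.6 and 55.2 CPM in the wild type and 39.8, 107 and 103 CPM in the Ptk6-/- males, and the low value was that of male Ptk6-/- succinate 1. Without that library the value was 1.00 for Sqle, 0.53 for Hmgcs1 (0.19 with it), 0.24 for Idi1 (0.05 with it), 0.26 for Srebf2 (0.15 with it), 0.10 for Insig1 (0.21 with it), 0.10 for Mvd (0.28 with it) and 0.08 for Fdps (0.30 with it). After the length offset Mvd had 0.53, Fdps 0.49, Lss 0.67 and Srebf2 0.18 in males. In females 7 of 8 values were positive, from 0.05 (Srebf2) to 0.79 ± 0.37 (Idi1), and Mvd had -0.06. Without female Ptk6-/- succinate 2 the value was 0.37 for Idi1, 0.34 for Hmgcs1 (0.66 with it), 0.22 for Insig1 (0.41 with it), -0.20 for Fdps (0.30 with it) and -0.66 for Mvd. After the length offset Fdps had 0.27, Mvd 0.02, Lss 0.13 and Srebf2 -0.01. No gene of the 8 had libraries that did not overlap, against 8.66% of all genes in males and 10.8% in females. In males tuft cell markers had a median of -1.23 and lymphoid cell markers -1.19. Heart muscle markers had 1.69 there, distal intestine markers 0.73 and enterocyte markers 0.38. In females heart muscle markers had -6.08, crypt and proliferation markers 0.52 and Paneth cell markers 0.47. None of these markers was called, and their part in the values of the 8 genes was not tested. These comparisons share groups with those of succinate against control, so their values are not independent of each other.

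**Figure D2:**
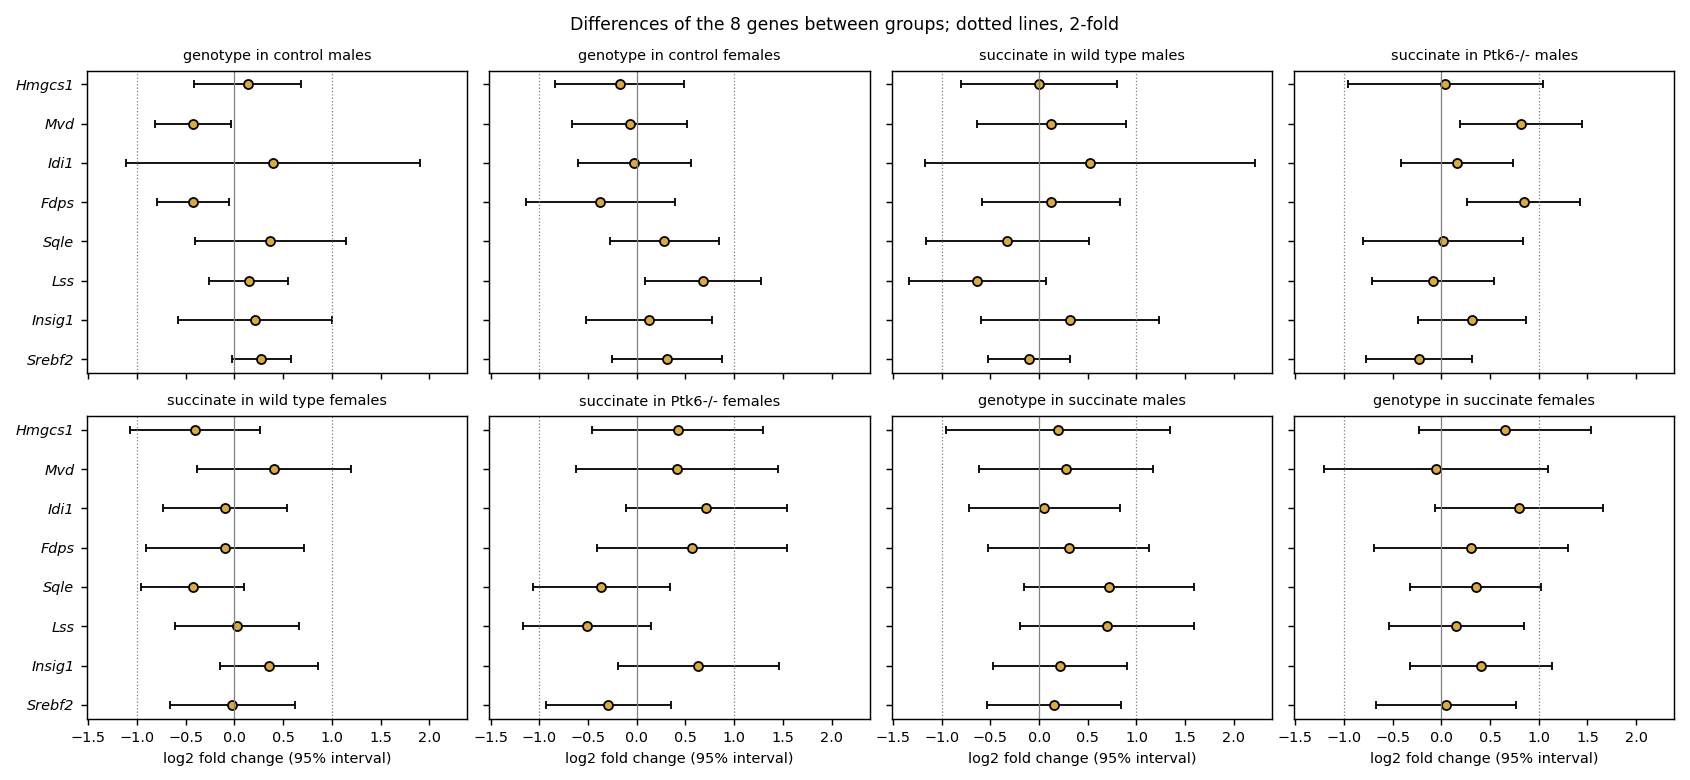
Log2 fold changes (horizontal axis) of the 8 genes in the 8 comparisons of 2 groups, as points with 95% intervals; Ptk6-/- against wild type for genotype, succinate against control for succinate. In 32 of the 64 comparisons of a gene the interval lies within the dotted lines at a 2-fold change, and the widest intervals are those of Idi1 in the comparisons with control wild type males.

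A fit of all 24 libraries gave narrower intervals for effects averaged over the other factors, where a gene was called at an adjusted p under 0.05. For succinate, 0 of 8 genes were called, against 1.03% of 21694 genes. Insig1 had 0.39 ± 0.17 (95% interval 0.04 to 0.75; adjusted p = 0.26) and Mvd 0.43 ± 0.19 (0.03 to 0.84; adjusted p = 0.29). Lss had -0.31 ± 0.15 (-0.61 to -0.003; adjusted p = 0.31), and Fdps had 0.35 ± 0.18. After the length offset the values were 0.40 for Insig1, 0.33 for Mvd, -0.20 for Lss and 0.41 for Fdps. Hmgcs1, the first enzyme of the set, had 0.01 ± 0.20. Over single mice, 5 of the 12 succinate libraries exceeded the highest control for Mvd, 2 for Insig1 and 2 for Fdps. Each of the 8 intervals lay inside a 2-fold change in either direction, so a difference of that size in the averaged effect is outside the intervals.

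For genotype, 0 of 8 genes were called, against 0.0277% of genes. Lss had 0.41 ± 0.15 (95% interval 0.11 to 0.71; adjusted p = 0.31) and Sqle 0.42 ± 0.18 (0.05 to 0.79; adjusted p = 0.34). With the length offset they had 0.28 and 0.36. Sqle and Lss act in succession on the way from squalene to lanosterol, and the other 6 genes had -0.08 (Mvd) to 0.29 (Idi1). In this contrast heart muscle markers had a median of -2.01, smooth muscle markers -0.46 and Paneth cell markers -0.41. Proximal intestine markers had 0.20 and crypt and proliferation markers 0.14, with 0 called in these lists. Their part in the Lss and Sqle values was not tested. For sex, 0 of 8 were called, against 0.447% of genes. Srebf2 was at a median of 156 CPM (117 to 204) in the 12 males and 123 CPM (89.1 to 173) in the 12 females. The ranges overlapped, and the log2 difference, male minus female, was 0.37 ± 0.12 (95% interval 0.12 to 0.61; adjusted p = 0.16). DESeq2 called this difference at 0.39 (adjusted p = 0.018), and the value was 0.32 with the length offset and 0.17 by limma on log2(FPKM + 1). DESeq2 called more genes than edgeR wherever both counts are given below, and its share of all genes for sex is not given. In the same contrast tuft cell markers had a median of -1.26 with 3 of 10 called and Paneth cell markers -0.77 with 1 of 6 called. Smooth muscle markers had -0.73 and heart muscle markers -1.33. Distal intestine markers had 1.09 with 2 of 3 positive, lymphoid cell markers 0.32 with 8 of 8 positive and enterocyte markers 0.20, with 0 called. The part of these cell types and regions in the Srebf2 value was not tested. The other 7 genes had -0.18 (Idi1) to 0.28 (Sqle).

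Whether an effect differed between groups was tested by interactions. None of the 8 genes was called for sex by succinate (0.0738% of genes called), sex by genotype (0%), genotype by succinate (0%), genotype by succinate in males (0%), genotype by succinate in females (0%) or the interaction of all 3 factors (0%). None of these 48 tests had an unadjusted p under 0.05. The lowest was 0.071, for genotype by succinate in Fdps, at 0.69 ± 0.36 with an interval of -0.07 to 1.44, and 0.79 with the length offset. Where all 3 factors entered the interaction, the intervals were too wide to exclude a 2-fold difference in any of the 8 genes.

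Many pairs of the genes, though not all, varied together between mice of the same group. For the 28 pairs, log2 CPM was correlated over 24 libraries after subtraction of the group means, with a two-sided permutation of libraries within groups and adjustment over the 28 pairs. Of these pairs 24 had a positive r, and 15 had an adjusted p under 0.05. The other 4, Srebf2 or Lss with Mvd or Fdps, had a negative r. On log2(FPKM + 1) all 28 were positive and 20 passed, with a median r of 0.79 against 0.45. The FPKM were used as deposited, without TMM scaling, and the part of this in the higher r was not tested. Hmgcs1 had 7.44 FPKM in male wild type control 1, against 28.8 and 34.6 in male wild type controls 2 and 3. In CPM these libraries had 98.5, 166 and 203. The share of passing pairs among other genes is not given, so the count is no trait particular to these genes. The part of variation common to all genes was not tested. Mvd and Fdps had the highest r of 0.87 (rho = 0.87, adjusted permutation p = 0.0032 and 0.0015), and r was 0.81 without the 2 libraries farthest from the median of Mvd. Hmgcs1 and Sqle had an r of 0.84 (rho = 0.83, adjusted permutation p = 0.0022 and 0.0015), and 0.77 without the 2 farthest libraries. Sqle and Idi1 had 0.80 (rho = 0.73, adjusted permutation p = 0.0048 and 0.010; 0.70 without 2), and Insig1 and Idi1 had 0.79 (rho = 0.65, adjusted permutation p = 0.0081 and 0.014; 0.58 without 2). Sqle and Insig1 had 0.71 (rho = 0.69, adjusted permutation p = 0.013 and 0.011; 0.77 without 2). Among Hmgcs1, Sqle, Idi1 and Insig1 the 6 pairs had an r of 0.63 to 0.84. Idi1 and Insig1 also passed with Mvd and Fdps, at an r of 0.43 to 0.56 (adjusted permutation p = 0.020 to 0.046). Of these 4 pairs Insig1 and Fdps did not pass by rank (rho = 0.51, adjusted permutation p = 0.074) or after removal of the length trend (adjusted permutation p = 0.090).

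Srebf2 and Lss were the remaining close pair, with an r of 0.68 (rho = 0.71, adjusted permutation p = 0.0086 and 0.010), and 0.64 without the 2 libraries farthest from the median of Srebf2. After removal of each library's length trend r was 0.45 (rho = 0.37, adjusted permutation p = 0.090 for r), so the pair no longer passed. Srebf2 was also correlated with Sqle (r = 0.65, rho = 0.65, adjusted permutation p = 0.013 and 0.014; 0.54 without 2). Against Mvd and Fdps, both Srebf2 and Lss had negative values, from -0.13 (rho = -0.07, Srebf2 and Mvd) to -0.44 (rho = -0.40, Lss and Fdps). None of these 4 passed the adjustment (adjusted permutation p = 0.14 to 0.61 for r and 0.17 to 0.81 for rho). Without the 3 libraries that stand apart, 9 of the 28 pairs had an adjusted p under 0.05, and the pairs changed order. Hmgcs1 and Insig1 then had an r of 0.89, Sqle and Insig1 0.88, Mvd and Fdps 0.86, Idi1 and Fdps 0.84, Idi1 and Mvd 0.79, Hmgcs1 and Sqle 0.71 and Sqle and Idi1 0.57.

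**Figure D3:**
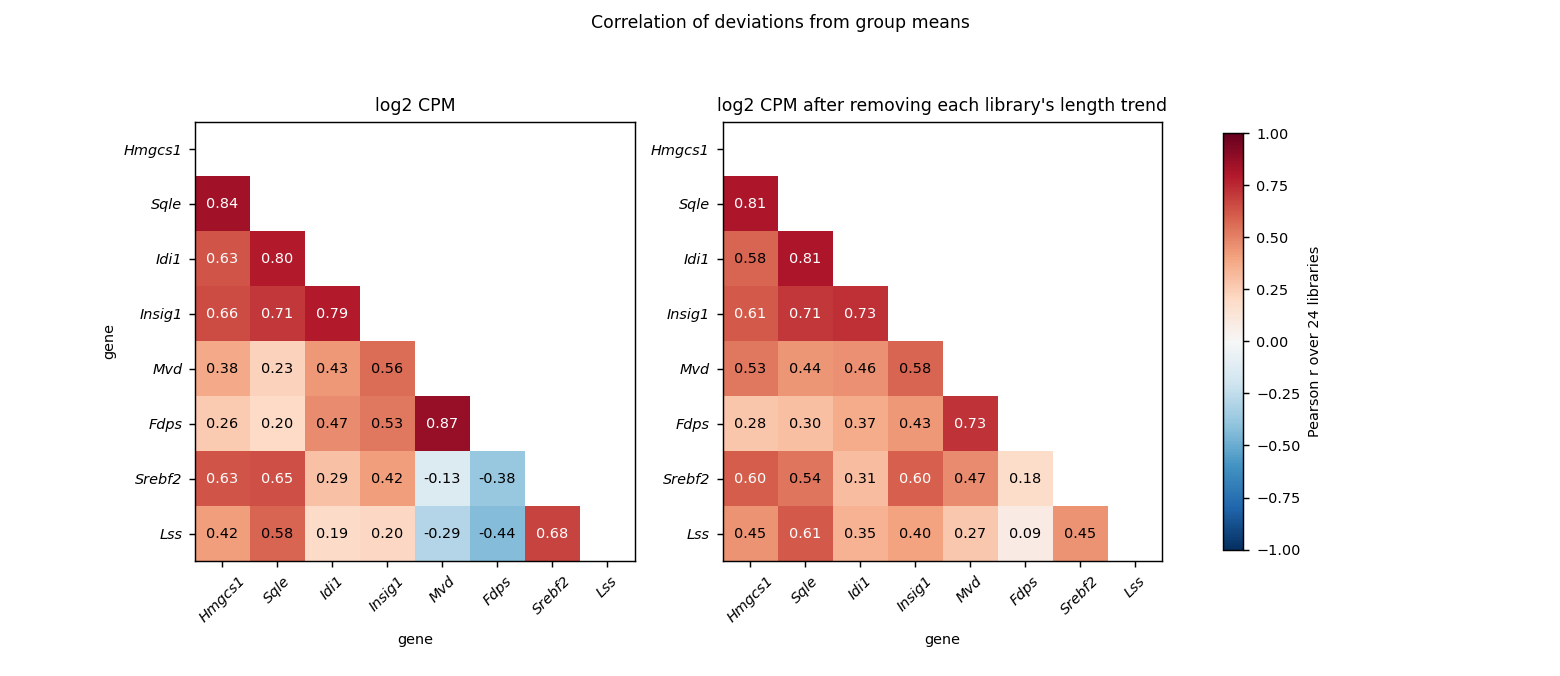
Pearson r over 24 libraries for each pair of genes (rows and columns), from deviations from group means; left, log2 CPM, and right, log2 CPM after removal of each library's trend with gene length. The 4 negative values on the left, from -0.13 to -0.44, are 0.09 to 0.47 on the right.

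The length slope of a library moved with 4 of the 8 genes. Over 24 libraries, after subtraction of group means, Fdps had an r of -0.83 with the slope (rho = -0.80, adjusted permutation p = 0.0059 and 0.0056) and Mvd of -0.73 (rho = -0.67, adjusted permutation p = 0.027 and 0.019). Lss had 0.67 (rho = 0.69, adjusted permutation p = 0.027 and 0.018) and Srebf2 0.61 (rho = 0.63, adjusted permutation p = 0.027 and 0.018). Without the 2 libraries of the most extreme slope, r was -0.82, -0.73, 0.72 and 0.52 in that order. Hmgcs1, Sqle, Idi1 and Insig1 had -0.10 to 0.31, and none of these 4 passed the adjustment. The share of all genes that pass this test is not given, so the count is no trait particular to the 8. Among the other sterol genes r with the slope ran from -0.94 (Mvk) to 0.82 (Mbtps1). The lengths read from the ratio of counts to FPKM were 2.59 for Mvd, 5.87 for Fdps, 10.02 for Srebf2 and 15.1 for Lss, on a scale in which Hmgcs1 had 6.40 and Insig1 4.31. After removal of the length trend all 28 pairs were positive, and 14 had an adjusted p under 0.05. Hmgcs1 and Sqle then had an r of 0.81, Sqle and Idi1 0.81 and Mvd and Fdps 0.73. Fdps still had an r of -0.90 and Mvd of -0.57 with the slope after that removal.

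**Figure D4:**
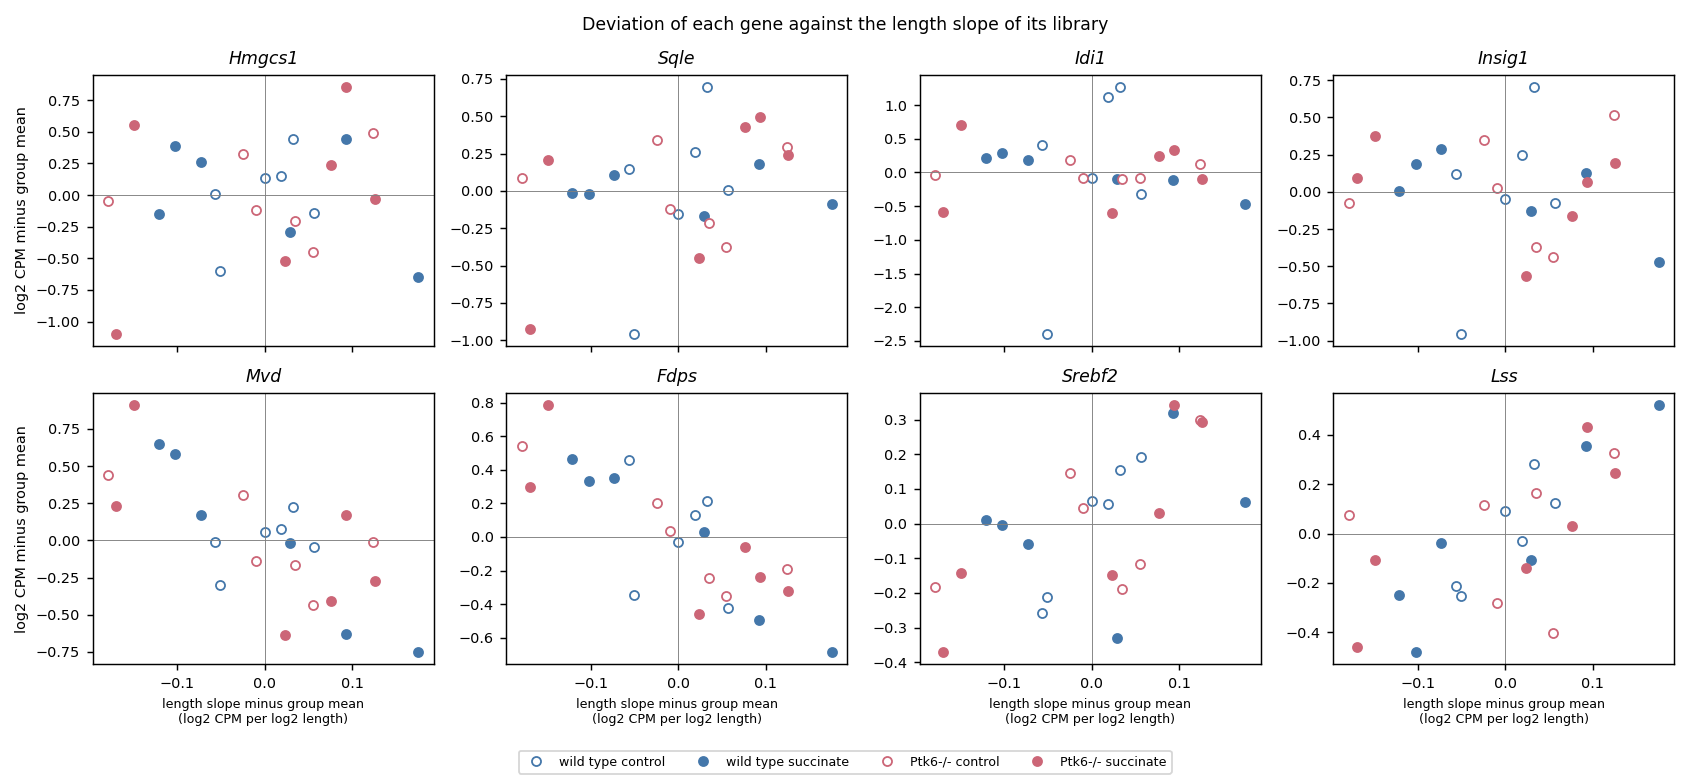
Deviation of each gene from its group mean in log2 CPM (vertical axis) against the deviation of the library's length slope from its group mean (horizontal axis), 1 point per library. Fdps and Mvd fall along the slope with an r of -0.83 and -0.73, Lss and Srebf2 rise along it with 0.67 and 0.61, and Idi1 shows the single low value of male wild type control 1.

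The other genes of sterol metabolism were read from 3 lists of 37 genes in all. Of 16 other synthesis enzymes, 0 were called in any of the 8 comparisons of 2 groups. In control males Mvk, mevalonate kinase, had -0.65 ± 0.12 and Pmvk, phosphomevalonate kinase, -0.78 ± 0.15, with an adjusted p of 0.036 and 0.038 by edgeR. Npc2, which hands sterol on in the lysosome, had -0.50 ± 0.10 there (adjusted p = 0.041). All 3 missed the 2-fold threshold. Pmvk was at 27.6, 29.9 and 34.5 CPM in the wild type and 14.5, 19.9 and 19.8 in the Ptk6-/- males. Like Mvd and Fdps, these genes moved with the length slope (r = -0.94 for Mvk, -0.90 for Pmvk and -0.92 for Npc2, as a description over 24 libraries after subtraction of group means). With the length offset their adjusted p was 0.075, 0.097 and 0.045.

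In Ptk6-/- males Mvk had 0.76 and Pmvk 1.22 with succinate, and Cyp51, lanosterol demethylase, had 0.55, each with an adjusted p of 0.60. Without male Ptk6-/- succinate 1 the Pmvk value was 0.54. In control females Nsdhl, a sterol dehydrogenase, had 1.12 ± 0.27 and Msmo1, methylsterol monooxygenase, had -1.02 ± 0.30 (adjusted p = 0.37 for both), and Pmvk had -0.58 ± 0.25. Nsdhl was at 12.8 CPM on average in the wild type and 27.4 in the Ptk6-/- females, whereas Msmo1 was at 86.9 and 41.9. In Ptk6-/- females with succinate Nsdhl had -1.09 ± 0.35 (adjusted p = 0.40), Soat1 1.56 ± 0.41 (0.34) and Npc1 -1.56 ± 0.44 (0.37). Soat1 encodes a sterol acyltransferase, and Npc1 the lysosomal partner of Npc2. Over 24 libraries, group means subtracted, r with the length slope was -0.94 for Mvk, -0.90 for Pmvk and -0.42 for Cyp51. It was 0.66 for Nsdhl, -0.45 for Msmo1, 0.69 for Npc1 and -0.02 for Soat1. Values with the length offset are not given for these comparisons. In control females the genotype values had a median of 0.02 over the 16 enzymes, with 8 positive and 8 negative, against 0.04 over all genes tested.

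Within wild type males Mylip, which marks lipoprotein receptors for breakdown, had 0.60 with succinate, Abca1 -0.77 and Soat1 0.42 (adjusted p = 0.95). Abca1 was called there at -1.24 without male wild type succinate 1 (adjusted p = 0.012) and at -1.11 with voom (adjusted p = 0.0083). In wild type females Abca1 had -1.14, Insig2, the relative of Insig1, -0.90, and Nr1h3, the sterol-sensing nuclear receptor LXR alpha, -0.86 (adjusted p = 0.62 to 0.63). Between genotypes under succinate, Soat1 had -0.66, Soat2 0.64 and Lbr, a sterol reductase of the nuclear envelope, -0.47 in males, and in females Lbr had 0.46 and Scarb1, a lipoprotein receptor, -0.48. None of these was called by edgeR with all libraries. The genes named here for single comparisons were picked for libraries that did not overlap, so that property is no result about them, and the shares of all genes are those given above for the 8.

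Of the genes for sterol uptake, transfer, esterification and efflux, 1 of 13 was called for succinate averaged over sex and genotype, against the 1.03% of all genes. Abca1, a transporter that passes cholesterol to apolipoproteins, fell by 0.86 on the log2 scale (SE 0.20; 95% interval -1.29 to -0.44; edgeR adjusted p = 0.043). It was at a median of 28.5 CPM (20.1 to 40.6) in the 12 controls and 15.9 CPM (5.64 to 33.2) in the 12 succinate mice, and 9 of the 12 succinate libraries lay below the lowest control. The adjusted p was 0.064 with the replicate number as a block, where Abca1 was not called at -0.87. It was 0.17 without the 3 libraries that stand apart, where the value was -0.79, and 0.017 with the length offset, at -0.77. Leaving out 1 library at a time gave an adjusted p of 0.0070 to 0.099, and Abca1 was called in 14 of the 36 settings tried. Over those 36 settings its value ran from -0.99 to -0.52. With 1 library left out it stayed called without female Ptk6-/- control 1 or 3, female Ptk6-/- succinate 1, female wild type succinate 3, male Ptk6-/- succinate 2 or male wild type succinate 1, and with any other it was not called. In this list 10 of 13 values were negative with a median of -0.40, against -0.002 over all genes tested.

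Npc1l1, which takes up cholesterol at the brush border, had -0.77 ± 0.26 (adjusted p = 0.17), and Abcg5 and Abcg8, which pump sterols back into the lumen, had -0.70 ± 0.21 (0.14) and -0.85 ± 0.27 (0.15). Soat2, an acyltransferase of enterocytes, had -0.53 ± 0.15 (0.11) and Soat1 0.59 ± 0.16 (0.089). Npc1l1 was at 226 to 1124 CPM with succinate and 601 to 1511 CPM in the controls. Over 24 libraries, group means subtracted, r with the length slope was 0.67 for Npc1l1, 0.54 for Abcg5 and 0.66 for Abcg8. It was 0.07 for Soat2 and -0.02 for Soat1. Values of these genes with the length offset are not given, nor is the median of the list. Of 8 genes of sterol sensing and SREBP processing, 8 had negative values with a median of -0.18, and 0 were called. For comparison, the 10 enterocyte markers had a median of -0.35 in the same contrast, with 7 negative and 0 called, and their summed level was 14776 to 50083 CPM with succinate and 14912 to 47044 CPM in the controls. Tuft cell markers had a median of 1.68 with 8 of 10 called, smooth muscle markers 0.78 with 1 of 7 called, Paneth cell markers 0.63 with 1 of 6 called and heart muscle markers 2.27 with 1 of 8 called, against 1.03% of all genes. Of the regional lists, proximal intestine markers had a median of -0.31 with 4 of 5 negative and distal intestine markers -0.55 with 2 of 3 negative, and 0 were called in either. The part of these cell types and regions in the sterol values was not tested.

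**Figure D5:**
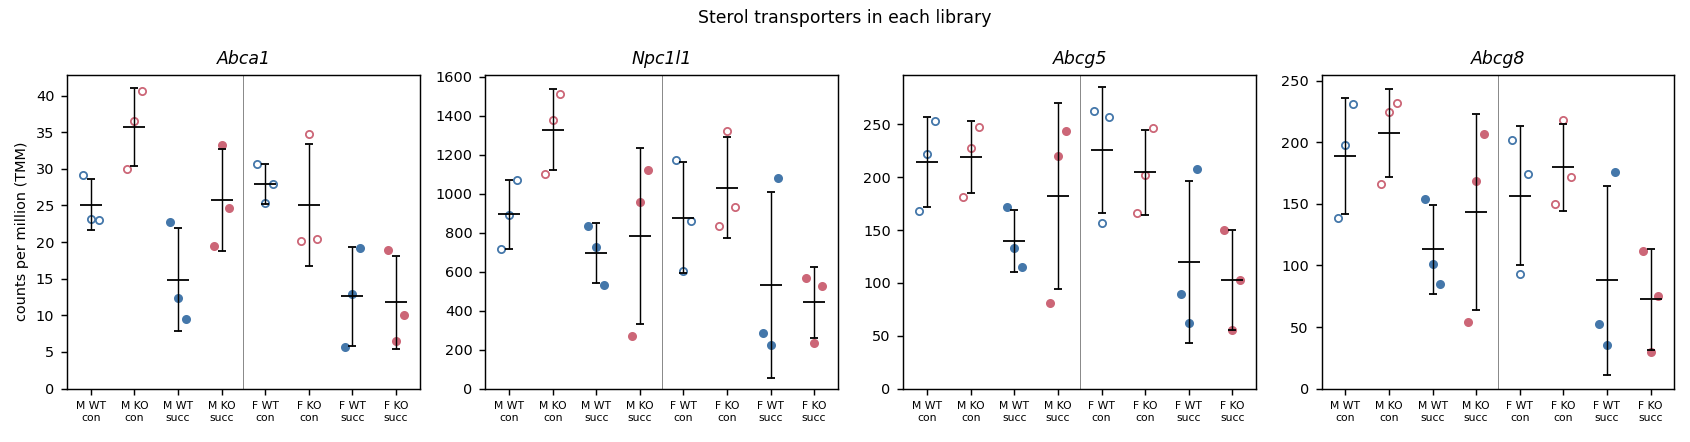
CPM (vertical axis) of Abca1, Npc1l1, Abcg5 and Abcg8 in each library by group (horizontal axis); open points are control and filled points succinate mice, blue wild type and red Ptk6-/-, and bars are the mean and SD of 3 mice. Succinate values reach lower than control values for each gene, and Abca1 is the gene called, with a log2 difference of -0.86.

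Genes most like the mean of the 8 were found by Pearson r over 24 libraries, between log2 CPM and the 8 genes' mean z-score. The search covered 13930 other genes with a mean of at least 1 CPM. Genes without a symbol or with a Gm or Rik name were left out. Mal2, a membrane trafficking protein of polarised epithelia, was first at 0.78. It was followed by Dapp1 (0.70), Kctd10 (0.67), Plekha2 (0.67), Trim15 (0.67), Eif2s2 (0.67), Alas1 (0.67), Tm4sf20 (0.67), Fdft1 (0.66) and Arfip1 (0.66). Fdft1 is squalene synthase, the enzyme between Fdps and Sqle, and was the single gene of the sterol lists among these 10. Of the 37 genes of the sterol lists 6 were among the first 100, and their r ran from 0.66 to -0.34, with Abca1 at -0.06. With group means removed the order differed. Scd2, a fatty acid desaturase, was then first at 0.86, followed by Arfip1 (0.81), Mid1ip1 (0.81), Mal2 (0.81), Kctd10 (0.81) and Aacs (0.80), and Dapp1 had 0.69. Scd2, Mid1ip1 and Aacs were named after their values were seen. All these r values are a description, and those with group means kept also hold the differences between the 8 groups.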

How the data were processed

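The authors sequenced stranded poly(A) libraries of the distal jejunum as paired reads, trimmed them with Cutadapt, mapped them with HISAT2 and assembled transcripts with StringTie. They deposited a table of raw read counts per gene, with no normalization, and FPKM values which the authors made with StringTie and ballgown. The counting program is not given in the sources used here. All 24 libraries were used, and 0 columns were left over.

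The main test was the quasi-likelihood test of edgeR 4.0.16 on TMM-scaled counts. Alternatives used DESeq2 1.42.0 and limma 3.58.1, all under R 4.3.3. A gene entered a comparison when 3 or more libraries held 10 or more counts of it, with Benjamini-Hochberg adjustment over all genes tested. Averages over factors and interactions came from 1 fit of 8 group means. The study's methods name DESeq2 for groups, which was run as an alternative. CPM were computed from TMM-scaled totals, and 0.5 was added before log2. The FPKM were used as deposited, without TMM scaling. The 2-fold threshold and the limit of 0.05 are the study's. Permutations numbered 100000. Villin and the cell type lists served as a check of the tissue. No libraries agreed within sampling noise. The length of a gene was read from the ratio of its counts to its FPKM.

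The 8 genes and the lists were chosen with earlier results of these data known. Other genes were named by a rule: those of the sterol lists called in a comparison, up to 3 per comparison of 2 groups with the smallest p among those whose libraries did not overlap, and the 10 most like the 8. Npc1l1, Abcg5, Abcg8 and Soat2 were added for the averaged succinate effect after their values were seen. Tests were checked on simulated data. The p-values measure the spread between mice of 1 colony.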

Additional observations from a re-analysis of the deposited data

How the results depend on the processing

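No member was called in any of the 17 comparisons with edgeR, and this held under DESeq2's size factors, either filter on low counts, the length offset, limma on log2(FPKM + 1), no fold threshold and all 24 libraries in 1 fit. With DESeq2, 1 gene (Srebf2) was called for sex, and 0 in the other 16 comparisons. The share of all genes that DESeq2 called for sex is not given, so this call is not weighed against it. With voom and sample quality weights, 3 were called for genotype averaged over sex and treatment (Lss 0.45, Mvd -0.40 and Fdps -0.34), 1 for genotype in succinate males (Lss 1.07) and 1 for sex (Srebf2 0.42). That setting called 8383 of 21694 genes for the genotype average, against 6 in edgeR. Its shares of all genes for genotype in succinate males and for sex are not given, so those calls are not weighed against them. Leaving out each library in turn gave 0 to 1 called for sex, with 1 (Srebf2) without female wild type succinate 3, and 0 elsewhere. The Srebf2 difference by sex stayed positive in all 36 settings, from 0.17 to 0.42. Without the 3 libraries that stand apart, 9 pairs of genes passed the adjustment in place of 15; the cause was not tested. CPM per length gives the order of the FPKM by construction, since the lengths were read from both, and is no check of it. The correlations after removal of the length trend were added after the data were seen.

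The groups share replicate numbers, but same-numbered libraries did not deviate together (r of -0.48 to 0.33 over 24 pairs, and 0 of 8 comparisons with every pair over 0.1). With the replicate block 0 of 8 genes were called in each comparison, with or without the length offset. Over all genes the block left 5 called in control males in place of 142, and 0 in place of 17 for succinate in Ptk6-/- females. DESeq2 called 311 and 433 there. For the averaged succinate effect, 798 genes were called by DESeq2, 4758 with voom, 153 with the block and 116 without the 3 libraries, against 224. With 3 mice a group, the intervals of 32 of the 64 two-group values reach past a 2-fold change.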
